A study of Mus musculus with 15 samples.

Results

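Interferon-stimulated genes are the antiviral and antibacterial effectors that cells switch on when they sense interferon, and their promoters were examined here as 1 set. The set was taken from 44 named genes, all of which matched a RefSeq transcript in the promoter annotation of the study. They contributed 48 of its 25881 promoters. Of these, 40 promoters of 37 genes had a coverage score above 100 fragments, the limit the study uses for high coverage, against 13559 of all promoters. The genes were chosen by name and not by a rule on measured occupancy, but with earlier results of these data known. Nucleosome positions came from ChIP-MNase, in which an antibody first pulls down long pieces of chromatin and micrococcal nuclease then trims them on the beads, so that mainly DNA of single nucleosomes is left to sequence. Most libraries used H3K4me1, a histone mark found around both active and inactive promoters.

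The mouse cells were dendritic cells (DCs), derived in vitro with GM-CSF from bone-marrow progenitor lines, and 3T3 fibroblasts, an immortalised line. DCs were non-stimulated or treated for 1 h with LPS, a component of the outer membrane of bacteria, at 100 ng/ml, and fibroblasts were non-stimulated or treated for 1 h with TNF-α, an inflammatory cytokine, at 5 ng/ml. Each of these 4 states is 1 set of H3K4me1 occupancies in which the authors had already pooled 2 replicates, so it has no replicate error. Another 8 H3K4me1 libraries came from control fibroblasts or fibroblasts sorted for a retroviral vector that expresses a single shRNA against Brg1 and Brm from the mouse U6 promoter, the alternative ATPases of the BAF chromatin remodelling complex (BAF knockdown), without or with TNF-α, in 2 replicates each. From TNF-α-treated fibroblasts there were also 2 libraries with an antibody against pol-II S7P, a form of RNA polymerase II found during elongation, and 1 with an antibody against pol-II S5P, found at initiation. The study's methods list more than 1 replicate for S5P, and whether the library used here is one of them or a pool is not stated. Replicate 1 of the knockdown cells carries, in both states, another tag in its name than the other single H3K4me1 libraries. What the tag stands for is not stated, and it cannot be told apart from that replicate. No file used here measures Brg1 or Brm, so the knockdown could not be checked here. The study itself reports lowered levels of both transcripts by quantitative RT-PCR. The H3K4me1 libraries were sequenced single-end and the pol-II libraries paired-end, so antibody and sequencing cannot be told apart. The pol-II libraries are not labelled as control fibroblasts. Against the control libraries, the cell sample cannot be told apart from antibody and sequencing either. The values are population averages within a normalised kilobase: a partly depleted promoter and a mixture of open and closed alleles look alike, and differences in total occupancy are not visible.

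Interferons bind receptors that activate the JAK kinases. Type I interferon then acts on promoters mainly through the interferon-stimulated response element (ISRE), and interferon-γ mainly through the GAS element. In DCs, LPS signalling through TLR4 and TRIF induces interferon-β, which then acts back on the same cells, so that many of these genes are known as secondary targets of LPS. Nucleosome-depleted regions (NDRs) just upstream of the TSS, with positioned nucleosomes downstream, are the usual arrangement at expressed promoters.

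The share of bins with at least 1 fragment at high-coverage promoters was 82.0 to 90.2% in the 4 pooled sets and 63.5 to 81.2% in the 11 single libraries, so values of one promoter are less precise in the latter. Between replicates of one group, patterning levels of the 40 promoters correlated with a Pearson r of 0.127 to 0.680 across promoters, which is a description over promoters and not a test. The pooled fibroblast levels of the 40 promoters differed from those of a single control library in the same state by a median of 4.14 to 5.48 (5.31 to 5.93 over all promoters), more than 5 at 16 to 22 of 40, so a pooled level of one promoter is often not seen in the single libraries. The control libraries are other samples than those pooled, made as controls of the knockdown. A difference between the cells thus cannot be told apart from imprecision. In median basal expression the markers followed the cell labels, but not every marker did. The fibroblast marker Fn1 had 12.2 times the mean in DCs and 11.9 times in fibroblasts. The DC marker Flt3 had only 0.00688 times the mean in DCs. The 10 high-coverage promoters of DC marker genes had a median of 6.32 times the mean of all promoters in DCs and 0.000799 times in fibroblasts, and the 7 of fibroblast marker genes 0.00567 times and 1.35 times. A higher patterning level, a measure of how far a profile follows that of expressed promoters, in non-stimulated DCs than in fibroblasts was seen at 10 of the 10 DC marker promoters and at 1 of the 7 fibroblast ones.

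The sequences below show what the ISRE letters of this set look like. They are the mm9 sequence of the high-coverage promoters among 10 genes chosen by name (Ifit1, Isg15, Rsad2, Mx1, Usp18, Gbp2, Irgm1, Ifih1, Parp14 and Adar) that hold an ISRE match, written 5′ to 3′ on the strand of the gene. Capitals mark ISRE matches, read as GAAA, any 2 bases and GAAA again, on either strand, and annotated exons were left out except for 30 bases around a match that lies within one. The first lies at chr19:34715234-34715348 (plus strand), from −145 to −31 bp of the TSS, and belongs to a tetratricopeptide protein that binds viral RNA.
Ifit1: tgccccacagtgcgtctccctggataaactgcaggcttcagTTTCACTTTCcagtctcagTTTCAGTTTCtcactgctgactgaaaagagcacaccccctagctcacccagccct
Isg15 encodes a ubiquitin-like protein that is attached to other proteins, and its 200 bases lie at chr4:155574958-155575157 (minus strand).
Isg15: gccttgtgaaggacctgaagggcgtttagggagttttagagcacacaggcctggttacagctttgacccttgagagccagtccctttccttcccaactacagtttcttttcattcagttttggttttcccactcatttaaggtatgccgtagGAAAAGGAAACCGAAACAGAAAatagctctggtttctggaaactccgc
Usp18 encodes the protease that removes ISG15, and its 200 bases lie at chr6:121195694-121195893 (plus strand).
Usp18: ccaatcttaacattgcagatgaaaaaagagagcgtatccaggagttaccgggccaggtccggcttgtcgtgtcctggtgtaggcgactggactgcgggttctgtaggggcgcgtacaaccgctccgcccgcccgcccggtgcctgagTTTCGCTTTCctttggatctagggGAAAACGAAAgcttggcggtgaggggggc
Rsad2 encodes viperin, and its 200 bases lie at chr12:27141348-27141547 (minus strand).
Rsad2: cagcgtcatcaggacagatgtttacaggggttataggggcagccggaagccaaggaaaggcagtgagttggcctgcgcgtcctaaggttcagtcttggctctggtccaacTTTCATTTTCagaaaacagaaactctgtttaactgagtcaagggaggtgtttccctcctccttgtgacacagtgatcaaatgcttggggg
The match of Gbp2, a guanylate-binding GTPase, lies at chr3:142283558-142283587 (plus strand), upstream of the RefSeq TSS but within an exon of another annotated transcript.
Gbp2: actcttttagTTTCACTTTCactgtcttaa
The match of Ifih1, the RNA sensor MDA5, lies at chr2:62484261-62484290 (minus strand), downstream of its TSS.
Ifih1: gaagagaatcGAAACAGAAAccgatctgtg
In Isg15, 3 matches overlap into 1 run, while in Ifit1 and Usp18 2 separate matches lie close together.

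ISRE matches in the window from 250 bp before to 50 bp after the TSS were present in 27 of the 48 promoters (56.2%) and in 24 of the 40 with high coverage (60%), against 3.61% of all high-coverage promoters. With a C required after the last A, 18 of the 40 (45%) and 0.981% of all matched. GAS matches (TTCNNNGAA, which reads alike on both strands) were found in 15 of 40 (37.5%) against 7.58%, and TATAAA in 3 of 40 (7.5%) against 9.72%. A CpG island was present at 9 of 40 (22.5%) against 56.1%. The set was thus rich in ISRE and GAS letters and held few CpG islands compared with all promoters. From −500 to 200 bp there were 43 matches in 27 promoters of 25 genes. These are 41 places in the genome, because the overlapping promoters of Gbp7 and of Isg20 each see the same place again. The letters GAAACTGAAA were the most frequent, with 15 matches in 14 promoters, among them Bst2, Dhx58, Ifit1, Ifit3, Igtp and Tgtp1. A letter match is not evidence that a factor binds.

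Basal expression, which the annotation takes from RNA-seq and which is on a different scale in each cell-type, exceeded 0.02 times the mean of all promoters for 37 of the 40 promoters in DCs and 20 of 40 in fibroblasts, against 61.8 and 47.6% of all high-coverage promoters. The median was 0.778 times the mean in DCs and 0.0224 times in fibroblasts. Ifitm3, a membrane protein that blocks virus entry, was highest in both, at 11.9 times in DCs and 3.2 times in fibroblasts. Mx1 was listed at 0 in fibroblasts and at 1.12 times the mean in DCs.

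Each promoter was described by its patterning level, which is high where its occupancy profile follows the average profile of expressed promoters in the same cell-type, about 0 where it does not and negative where it runs against it. In non-stimulated DCs the 40 promoters ranged from −1.96 to 12.2 with a median of 3.86. The median of all 13559 high-coverage promoters was 3.44, that of 8373 expressed promoters 5.12 and that of 3225 promoters without expression 0.561. Levels below 0 were seen at 5 of 40, against 28.1% of all promoters. In LPS-treated DCs the median was 4.96 (3.65 for all), and 7 of 40 lay below 0 (28.6% of all). Fibroblasts gave a median of 3.26 before stimulation (3.51 for all) and 3.98 after TNF-α (3.77 for all), with 9 and 10 of 40 below 0 (29.4 and 29.7% of all). The interferon-stimulated promoters thus lay between promoters of silent and of expressed genes in both cell-types. These are values of 1 pooled set each and carry no test.

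**Figure D1:**
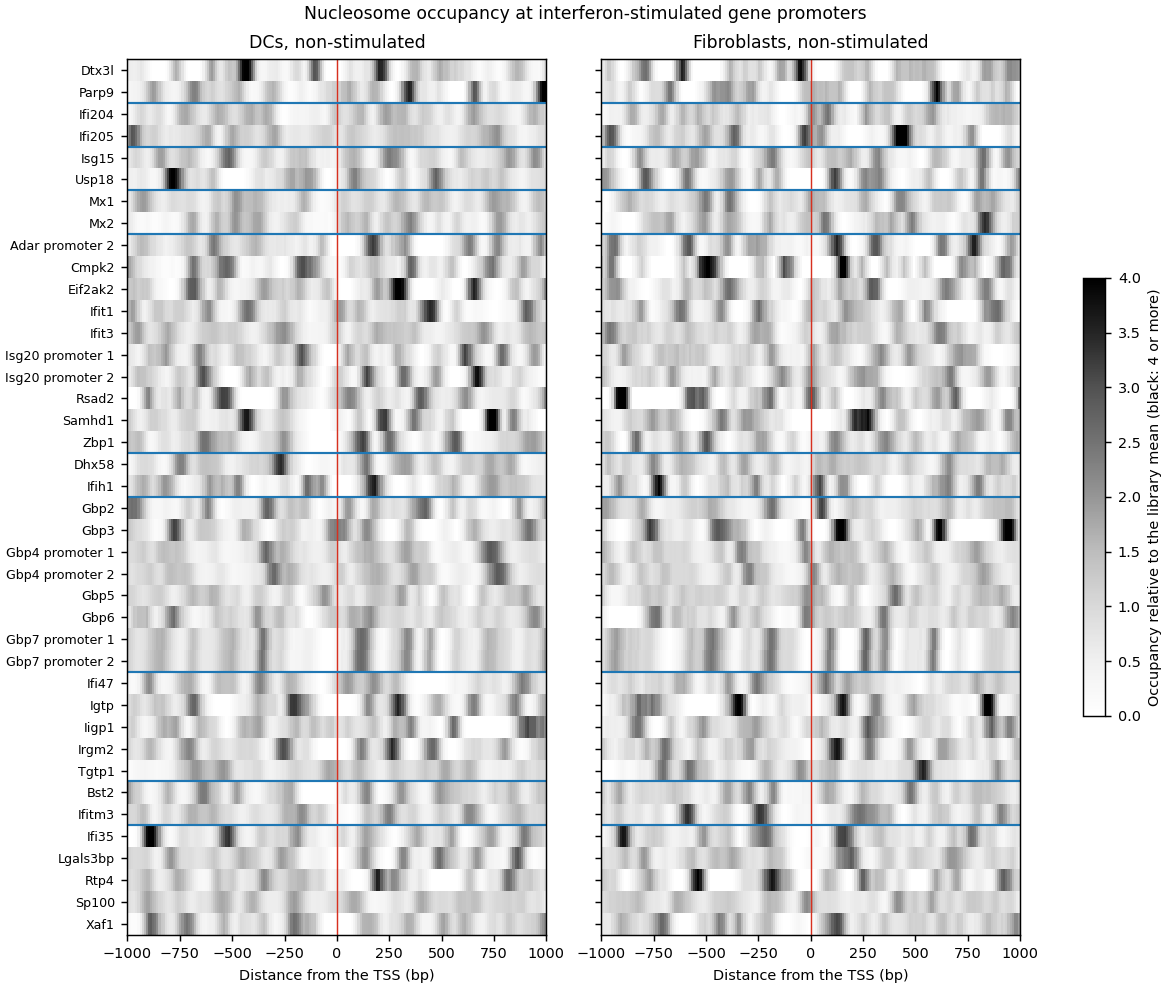
Nucleosome occupancy, relative to the library mean, at the 40 high-coverage promoters (rows, separated by lines into role groups) from −1000 to 1000 bp of the TSS in non-stimulated DCs (left) and fibroblasts (right). Light stretches just left of the TSS (vertical line) mark NDRs, which are almost white for Bst2 and Zbp1 in DCs, while Tgtp1 and Gbp5 show none there.

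NDR depth is given as a ratio of mean occupancies, with the stretch between −150 bp and the TSS over that between −1000 and −500 bp, so that a low ratio means a deep NDR. Over the mean profiles the ratio was 0.608 in non-stimulated DCs, 0.558 after LPS, 0.683 in fibroblasts and 0.698 after TNF-α. All high-coverage promoters had 0.687, 0.667, 0.674 and 0.647, and promoters expressed in the same cell-type 0.569, 0.548, 0.502 and 0.456. Because few of the promoters have CpG islands, expressed promoters without an island are the closer comparison. There, 2494 promoters in DCs had a ratio of 0.769, against 0.563 at the 29 expressed interferon-stimulated promoters of that kind. In fibroblasts 1486 such promoters had 0.746 and the 14 in the set 0.503, which became 0.755 and 0.651 after TNF-α. For single promoters the ratio ran from 0.00364 at Bst2 to 1.69 at Dtx3l in non-stimulated DCs, and from 0.110 at Xaf1 to 2.24 at Dtx3l in fibroblasts. A ratio below 0.5 was seen at 15 of 40 promoters in non-stimulated DCs and 24 of 40 after LPS (40 and 42.7% of all promoters), and at 17 of 40 in fibroblasts in either state (41.7 and 45%).

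**Figure D2:**
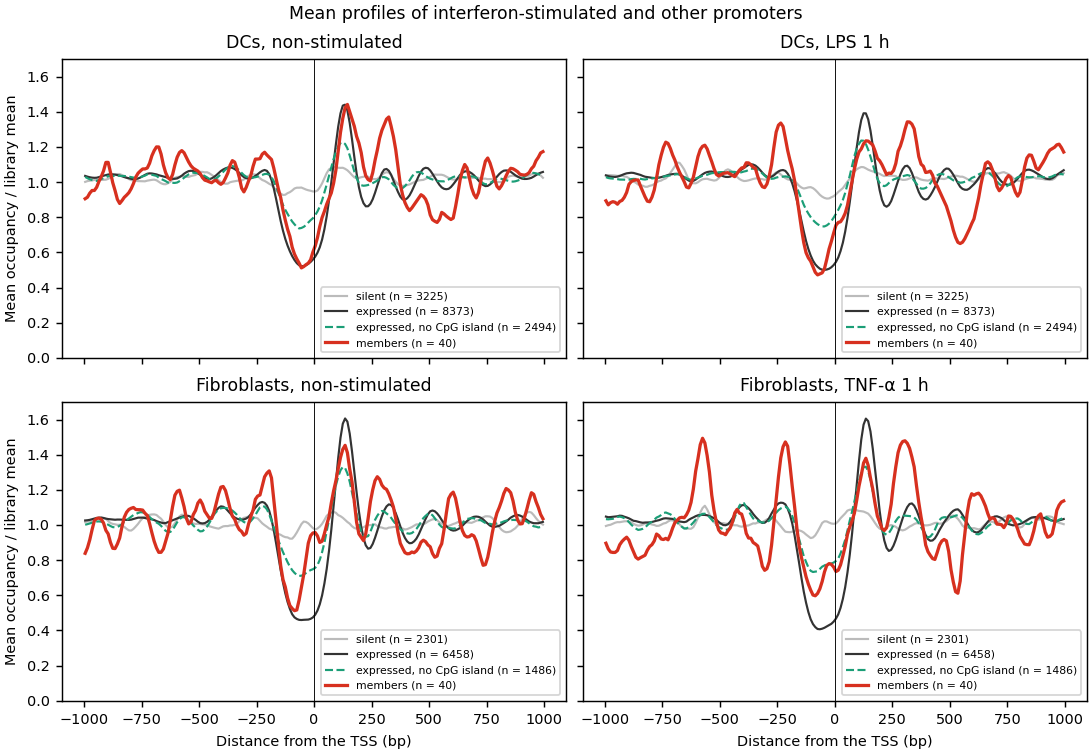
Mean occupancy relative to the library mean against distance from the TSS in the 4 pooled sets, for the 40 interferon-stimulated promoters (red), all expressed promoters of that cell-type (black), expressed promoters without a CpG island (green, dashed) and promoters without expression (grey). In non-stimulated DCs the red line falls to 0.512 at −55 bp, and in fibroblasts after TNF-α to 0.597 at −85 bp, above the black line.

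Among the RNA effectors, 10 high-coverage promoters of 9 genes had median levels of 4.26 and 3.20 in DCs before and after LPS and 5.43 and 4.90 in fibroblasts before and after TNF-α. Zbp1, a sensor of Z-form nucleic acids that triggers cell death, had a level of 12.2 and an NDR ratio of 0.0221 in non-stimulated DCs, and 3.3 and 0.497 after LPS. Adar edits adenosines in double-stranded RNA. The second of its promoters, the one with high coverage, had levels of 6.79 and 11.5 in DCs and 13.4 and 7.53 in fibroblasts, where the single control libraries had 11.9 and 15.2 before and 1.13 and 3.69 after TNF-α. The levels of Ifit1 were 2.01 and 5.77 in DCs and 3.57 and 1.27 in fibroblasts, and its NDR ratio in DCs was 0.515 before and 0.0794 after LPS. In the control libraries Ifit1 had −1.85 and 2.78 before and 0.351 and 6.32 after TNF-α. Ifit3, its neighbour and binding partner, kept NDR ratios of 0.353 to 0.501 in all 4 sets. Rsad2 had low levels throughout, from −1.69 to 1.01. Cmpk2, a mitochondrial nucleotide kinase that lies beside Rsad2, had −1.05 and −7.95 in DCs and 7.1 and 1.4 in fibroblasts. The control libraries gave it −10.3 and −0.14 before and −2.78 and 7.58 after TNF-α, so its high pooled level was not seen there.

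The ISG15 system was represented by Isg15 and Usp18, since the ligase Herc6 had low coverage. Isg15 had levels of 2.55 and 4.66 in DCs and 3.63 and −2.1 in fibroblasts, while all 4 control libraries were above 0, at 9.06 and 0.662 before and 14.9 and 12.1 after TNF-α. Usp18 had 4.78 and 10.4 in DCs, but already 12.3 in non-stimulated fibroblasts, with 10.7 after TNF-α, although its basal expression there was 0.0122 times the mean. In the control libraries it had 8.19 and 21.3 before and 2.73 and 9.85 after TNF-α. Its NDR ratio was 0.737 in non-stimulated DCs, 0.219 after LPS and 0.207 in non-stimulated fibroblasts. Of the RNA sensors, Dhx58 (LGP2) had levels of 10.9 and 12.4 in DCs against 4.5 and 9.26 in fibroblasts, while Ifih1 stayed between −0.593 and 3.29. Ddx58 (RIG-I) had low coverage. Both Mx genes are listed with noncoding RefSeq transcripts. They had positive levels in DCs (4.6 and 5.37 for Mx1, 5.44 and 9.23 for Mx2) and negative levels in non-stimulated fibroblasts (−3.39 and −2.2). After TNF-α these were 4 and 9.31. In the control libraries Mx1 had −0.659 and −8.77 before and 5.85 and −3.09 after, and Mx2 −0.34 and 7.78, then 3.37 and 8.57, so the replicates overlapped.

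The guanylate-binding proteins, interferon-γ-inducible GTPases that attack pathogen vacuoles, gave 8 promoters of 6 genes, of which 5 had an ISRE and none a CpG island. Gbp7 had levels of 11.9 and 6.74 in DCs and 3.22 and 8.34 in fibroblasts at its first promoter. Its second starts 4 bp away and holds nearly the same data, as do the Gbp4 promoters, 34 bp apart. Gbp5 was among the least patterned of the set in the pooled sets, with −1.96 and −8.95 in DCs and −6.46 and −5.43 in fibroblasts. The control libraries went the other way, with 7.2 and 6.29 before and 2.25 and 1.43 after TNF-α. Gbp3 stood at 0.0314 in non-stimulated DCs and at 12 in the pooled fibroblasts, but at 1.76 and 2.12 in the non-stimulated control libraries. Gbp2 ran from −0.577 to 1.52 in the 4 pooled sets and from 0.983 to 6.76 in the control libraries. The immunity-related GTPases, which act beside the Gbps, gave 5 promoters that all carried an ISRE and a GAS match. Igtp and Irgm2 had levels of 9.63 and 10.9 in non-stimulated DCs and of 13 and 12.2 in the pooled non-stimulated fibroblasts. After TNF-α they stood at 4.59 and 4. The non-stimulated control libraries had only 0.303 and 0.683 for Igtp and 1.22 and 0.263 for Irgm2, and after TNF-α −4.44 and −4.58 and then 1.94 and 1.25, so the high pooled levels were not seen there. Tgtp1 and Iigp1 were poorly patterned in non-stimulated DCs, at −1.56 and −0.919. Many of these families have near-identical copies (Tgtp1, the Gbps, Irgm genes, Ifi204 and Ifi205, Mx1 and Mx2, and the repeats near Sp100). By the study's methods, a fragment that aligned to more than 1 promoter region was dropped. Such a loss cannot be told apart from low occupancy, so their single values are uncertain.

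Of the HIN-200 DNA sensors, Ifi205 had 0.517 and 1.41 in DCs and −7.95 and −0.922 in fibroblasts, against 6.13 and 1.58, then −0.741 and 18, in the control libraries. Parp9 and Dtx3l, which form an ADP-ribosylation and ubiquitin ligase complex, are transcribed away from each other from TSSs 557 bp apart, so their windows share data. In fibroblasts Dtx3l had −7.92 before and 2.62 after TNF-α, and the control libraries −8.64 and −10 before and 6.86 and 3.45 after. In DCs it had −1.75 before and 3.66 after LPS, and its NDR ratio was 1.69 and 0.0813. The membrane proteins were well patterned in DCs after LPS, Bst2 (tetherin, which holds budding virus at the cell surface) at 12 and Ifitm3 at 6.63. Bst2 had an NDR ratio of 0.00364 in non-stimulated DCs and of 0.327 in fibroblasts, with basal expression of 7.25 and 0.0674 times the mean. Among the remaining genes, Lgals3bp, a secreted galectin-binding glycoprotein, was high in all 4 pooled sets (10.5 to 14.3) but ran from −1.84 to 15.2 in the control libraries, Ifi35 was highest in the pooled fibroblasts (14.4 and 17.6, with 4.98 to 22.6 in the control libraries), and Xaf1, a pro-apoptotic gene, had 8.2 and 8.76 in DCs and 13.2 and 7.25 in fibroblasts, with 8.16 to 19.9 in the control libraries.

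**Figure D3:**
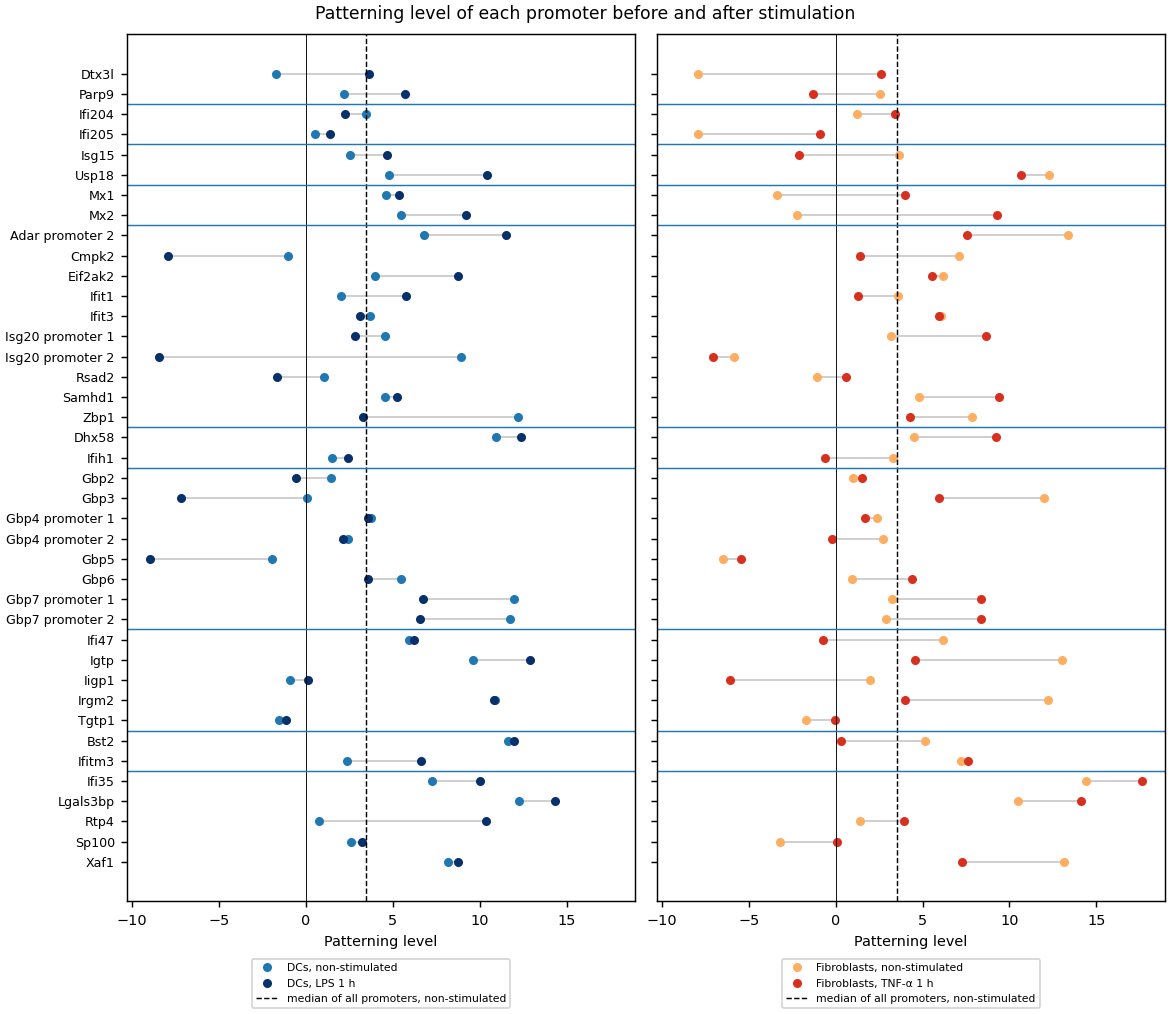
Patterning level of each of the 40 promoters (rows, grouped by role) in DCs (left) and fibroblasts (right) before and after stimulation. Points are single pooled sets without error, lines join the states of one promoter, and the dashed line is the median of all promoters in non-stimulated cells (3.44 and 3.51). The widest gap between states is at the second promoter of Isg20 in DCs (8.95 and −8.48).

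The 8 low-coverage promoters (57.5 to 93.5 fragments) are Ifit2, Ddx58, Ifi44, Irgm1, Herc6, Parp14, Tor3a and the first promoter of Adar. The nearest to the limit from above were Eif2ak2 (101), Cmpk2 (106) and Gbp2 (107), and from below the first Adar promoter (93.5) and Ifit2 (89.5). Irgm1 had levels of 0.862 and 2.23 in DCs and −2.31 and 2.91 in fibroblasts, and Parp14 10 and 5.2 in DCs and −0.351 and 3.9 in fibroblasts. They were left out of all counts.

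Between cell-types, 20 of 40 promoters had a higher patterning level in non-stimulated DCs than in fibroblasts, against 48.7% of all promoters, and the median difference was −0.0495 (−0.203 for all). The promoters with the largest excess in DCs were the second promoter of Isg20, an RNA exonuclease (8.95 against −5.83), Gbp7 (11.9 against 3.22), Ifi205, Mx1 and Mx2. Those with the largest excess in fibroblasts were Gbp3 (0.0314 against 12), Cmpk2 (−1.05 against 7.1), Usp18, Ifi35 and Adar. NDR ratios were lower in DCs at 24 of 40 promoters (47.8% of all), and in the stimulated states at 28 of 40 (46.6% of all). Both stimulated and non-stimulated DCs exceeded the corresponding fibroblasts in patterning at 8 of 40 promoters, and lay below them at 7 of 40, against 25.9 and 28.7% of all. As each state is a single pooled set, none of these differences could be set against replicate error. The excess of Gbp3 and Cmpk2 in fibroblasts rests on pooled levels that both non-stimulated control libraries fell short of by more than 5.

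Upon LPS treatment of DCs, 24 of 40 promoters had a higher level than before (50.6% of all), with a median difference of 0.608 (0.0793 for all). NDR ratios were lower after LPS at 24 of 40 (53.4% of all). The largest positive differences were at Rtp4, a receptor transporter with antiviral activity (0.741 before and 10.4 after), Usp18, Dtx3l, Eif2ak2, the RNA-activated kinase PKR (3.96 and 8.76), and Adar. The largest negative differences were at the second promoter of Isg20, Zbp1, Gbp3, Gbp5 and Cmpk2. None of the 8 promoters of the guanylate-binding proteins had a higher level after LPS, whereas 5 of 5 in the group of other genes and both promoters of the ISG15 system, of the sensors, of the Mx genes, of the membrane proteins and of the ADP-ribosylation pair did. Of the RNA effectors 4 of 10 did, of the immunity-related GTPases 4 of 5 and of the HIN-200 genes 1 of 2. Whether the groups differ was not tested, they are small and share neighbouring or overlapping promoters, and the values carry no replicate error. After TNF-α in the pooled fibroblast sets, 20 of 40 promoters were higher (51.1% of all), with a median difference of 0.176 (0.175 for all), and NDR ratios were lower at 19 of 40 (54.2% of all). The immunity-related GTPases had a median of 6.18 before and −0.00968 after, with 1 of 5 higher. In the single libraries the TNF-α effect, averaged over control and knockdown cells, was −4.05 ± 5.23 (SE) at Tgtp1 and 0.83 ± 4.40 at Ifi47. Iigp1 had −2.87 ± 3.52, Igtp −1.50 ± 3.68 and Irgm2 −0.21 ± 3.31.

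Occupancy was then read at the ISRE matches themselves, as the mean within 40 bp of the centre of a match divided by the mean of its promoter. In non-stimulated DCs the median of the 43 matches was 0.392, and 38 of 43 lay below the promoter mean. At 1174 matches in other high-coverage promoters the median was 0.792 and 64.4% lay below it. After LPS the values were 0.266 with 36 of 43 (67.1% at the others), in fibroblasts 0.487 with 34 of 43 (64.6%), and after TNF-α 0.467 with 35 of 43 (64%). Matches in the interferon-stimulated promoters lie mostly where expressed promoters are depleted in any case, 33 of 43 within 200 bp upstream of the TSS. The median of all expressed promoters at the same distances was 0.442 in non-stimulated DCs, 0.363 after LPS, 0.318 in fibroblasts and 0.113 after TNF-α. Relative to this, 28 and 30 of 43 matches were lower in DCs and 18 and 12 of 43 in fibroblasts. Matches of one promoter can read the same bins, and neighbouring ones at Rtp4 and Isg15 had identical values. The 43 matches are thus not independent, and they were not counted by promoter against this median. As the reference is a median, expressed promoters themselves lie about equally often on either side of it. More matches lay below it than above it in DCs, and fewer in fibroblasts. This contrast between the cell-types was not tested. The NDR of expressed promoters is itself deeper in the fibroblast sets (ratio 0.502 and 0.456) than in the DC sets (0.569 and 0.548), and its part in this difference was not tested. These expressed promoters include those with CpG islands, which are few in the set. Of the set, 37 promoters were expressed in DCs but only 20 in fibroblasts. The part of either in the difference was not tested.

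Single matches differed widely. Those of Ifit1, centred at −99 and −80 bp, had 0.307 and 0.392 in non-stimulated DCs and were listed at 0 after LPS. In fibroblasts they had 0.193 and 0.215, and 0.672 and 0.790 after TNF-α. The control libraries had 0.103 to 0.783 before and 0.119 to 0.578 after TNF-α. The 4 matches of Rtp4 had 0.435 to 0.811 before LPS and were listed at 0 after it. An occupancy of 0 means that no fragment was placed there, and the fragment number behind it is not known. At Isg15 the 3 matches had 0.428 to 0.469 in DCs, 0.234 to 0.244 after LPS, 0.534 to 0.643 in fibroblasts and 1.09 to 1.47 after TNF-α. The higher pooled values with TNF-α were not seen in the control libraries, which had 0.416 to 0.845 before and 0.0205 to 0.439 after. The match of Ifih1 was nearly free of fragments in DCs (0.0147) but lay under high occupancy in non-stimulated fibroblasts (2.14, and 1.22 and 2.24 in the control libraries). After TNF-α it had 0.245 in the pooled fibroblasts, and 0.0077 and 0.531 in the control libraries. Tgtp1 (1.33) and Gbp3 (1.33 and 1.58) also had occupancies above the promoter mean at their matches in DCs.

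**Figure D4:**
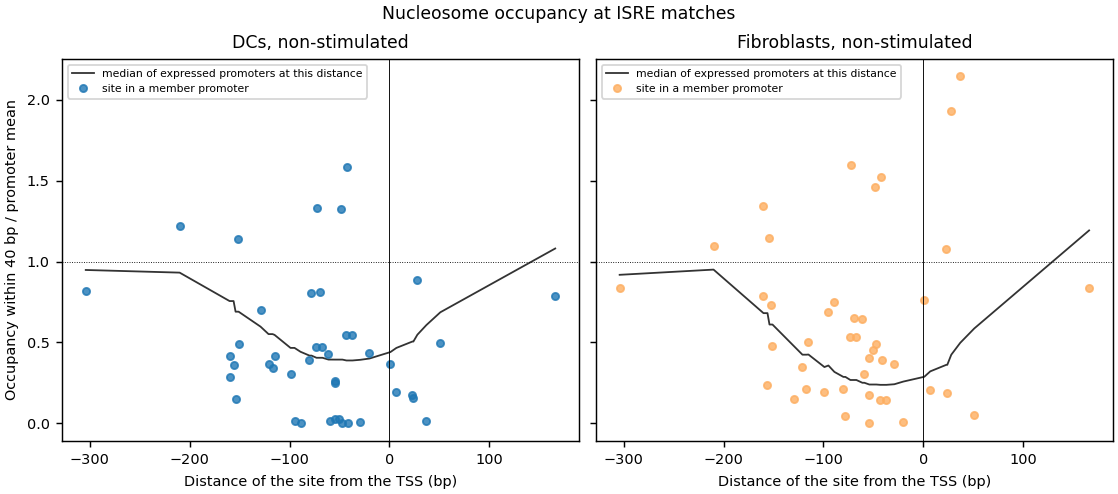
Occupancy within 40 bp of each ISRE match divided by the mean of its promoter, against the distance of the match from the TSS, in non-stimulated DCs (left) and fibroblasts (right). Points are the 43 matches in high-coverage interferon-stimulated promoters, and the black line joins the medians of all expressed promoters at the same distances, so that points below it are more depleted (28 in DCs and 18 in fibroblasts). Neighbouring matches of one promoter can share bins and are not independent.

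Whether TNF-α or BAF knockdown changed the promoters was tested with limma across 13295 promoters in the 11 single libraries, in 1 fit with Benjamini-Hochberg adjustment at 0.05. The study's methods call the replicates biological, while the labels do not say whether they are separate cultures. For the TNF-α effect, averaged over control and knockdown cells, no promoter was called for patterning or NDR ratio (0% of 13295 in each, with 693 and 822 at an unadjusted p under 0.05), and none of the 40 either. The median effect at the 40 was 1.37 in patterning (0.375 over all promoters) and −0.38 in log2 NDR ratio (−0.09). Without replicate 1 of the non-stimulated control cells the patterning median was 2.38 and without replicate 2 it was 0.42, and the NDR median was −0.08 without replicate 2 of the TNF-α-treated control cells. The 3 promoters of smallest p for patterning were Ifit3 (12.8 ± 6.79 SE), Sp100, a nuclear body protein (−8 ± 4.3), and Adar (−7.04 ± 4.04), with adjusted p of 0.921 to 0.927. For the NDR ratio they were Dhx58 (−1.65 ± 0.61 on the log2 scale, adjusted p = 0.687 by limma), Adar and Cmpk2. At no promoter of the set did the 4 TNF-α libraries separate from the 4 non-stimulated ones in patterning (1.59% of all promoters were higher in every TNF-α library and 1.05% lower). Of the 40 promoters, 0 had an unadjusted p under 0.05 for patterning and 2 for the NDR ratio, against 5.21 and 6.18% of all. Fitted effects were below 0 at 15 of 40 for patterning (46.6% of all) and at 25 of 40 for the NDR ratio (55.2% of all).

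BAF knockdown likewise gave no call for patterning or NDR ratio (0% of 13295 in each, with 754 and 762 at an unadjusted p under 0.05). The median patterning effect at the 40 promoters was −0.319 (0.114 over all), but 0.0566 without replicate 2 of the TNF-α-treated control cells and 0.174 without replicate 2 of the non-stimulated knockdown cells, so it has no stable sign. In the fit of all libraries 22 of 40 were below 0 (49% of all), as were 19 of 40 for the NDR ratio (49.2% of all). An unadjusted p under 0.05 was found at 2 of 40 for patterning and 4 of 40 for the NDR ratio, against 5.67 and 5.73% of all. Sp100 had the smallest p (limma, −13 ± 4.3 SE, adjusted p = 0.843). Its levels were 2.87 and 3.72 in non-stimulated control cells, 7.29 and −5.55 after TNF-α, 3.39 and −11.7 in non-stimulated knockdown cells and −18.1 and −17.4 in knockdown cells after TNF-α. The 2 libraries of TNF-α-treated knockdown cells were lower than every other library, but the knockdown and control groups overlapped. Ifit3 followed (limma, −19.6 ± 6.79, adjusted p = 0.843), with 2.15 and 4.57, then 7.37 and 24.5, in control cells and −6.1 and −26.9, then 3.51 and −10.3, in knockdown cells. For no promoter of the set did the 4 knockdown libraries separate from the 4 control libraries in patterning (1.49% of all promoters were lower in every knockdown library and 1.45% higher). The log2 NDR ratio of Sp100 was −3.76 to −3.61 in the 4 control libraries and −3.76, −0.05, −0.53 and 0.17 in the knockdown libraries (effect 2.67 ± 0.79, limma adjusted p = 0.659). The lowest of these values are about what a window without fragments gives, with the pseudocount of 0.1 added to each mean occupancy. The size of this effect thus depends on the pseudocount. The NDR ratio of all expressed promoters also varied between these libraries, from 0.535 to 0.699 in control and from 0.529 to 0.677 in knockdown cells, and its part in the single-promoter values was not tested.

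The difference between the TNF-α effects of knockdown and control cells was not called at any promoter either (0% of 13295 in patterning and NDR ratio, with 710 and 806 at an unadjusted p under 0.05). It was below 0 at 18 of 40 for patterning (46.1% of all) and at 21 of 40 for the NDR ratio (55.2% of all), and an unadjusted p under 0.05 was found at 4 and 5 of 40 (5.34 and 6.06% of all). These counts turned with single libraries: values above 0 in patterning were at 22 of 40, but at 16 without replicate 1 of the TNF-α-treated and at 17 without replicate 2 of the non-stimulated control cells, and in the NDR ratio at 19, but at 21 and 22 without replicate 2 of the non-stimulated control or knockdown cells. Gbp4 had the smallest p of the set (first promoter −26.0 ± 7.21 SE, adjusted p = 0.829 by limma). In control cells it had levels of −9.32 and −14.4 without TNF-α and of 6.39 and 5.19 with it, and in knockdown cells 6.77 and 2.33 before and −2.59 and −5.03 after. Parp9 (−23.2 ± 9.1) had −7.6 and 7.15 before and 2.81 and 15.3 after in control cells, against 4.72 and 6.43 and then −7 and −9.6 in knockdown cells. The value of Ifih1 had the opposite sign (20.05 ± 8.56). For the NDR ratio the smallest p belonged to Gbp4, Gbp6 and Parp9 (adjusted p 0.554 to 0.577 by limma).

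**Figure D5:**
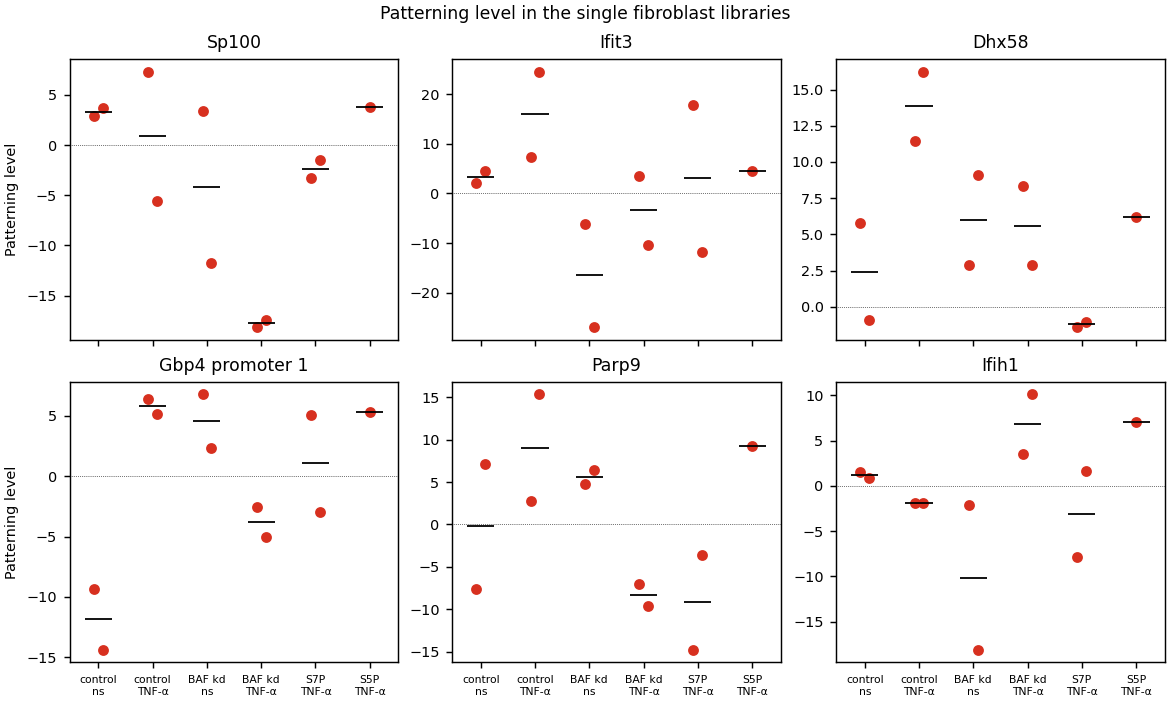
Patterning level of 6 promoters in the 11 single fibroblast libraries. Points are libraries and bars group means (2 libraries a group, 1 for pol-II S5P). Sp100 is lowest in both TNF-α-treated knockdown libraries (−18.1 and −17.4), and Gbp4 has higher points with TNF-α in control cells and lower ones in knockdown cells, but no difference passed the test.

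Alleles carrying elongating polymerase in TNF-α-treated fibroblasts were compared with all H3K4me1 alleles in TNF-α-treated control cells. Antibody, sequencing and cell sample differ together in this comparison. No promoter was called for patterning or NDR ratio (0% of 13295 in each, with 902 and 1160 at an unadjusted p under 0.05). At the 40 promoters the median patterning effect of pol-II S7P was −4.48, against −0.292 over all promoters, and 33 of 40 had a lower mean level in the S7P libraries (51.7% of all). An unadjusted p under 0.05 was found at 5 of 40 for patterning and 4 of 40 for the NDR ratio, against 6.78 and 8.73% of all. Without replicate 2 of the TNF-α-treated control cells the median was −2.88 and 25 of 40 were lower. Their median levels were 0.606 and 1.48 in the S7P libraries (3.14 and 3.13 for all promoters) and 2.77 and 5.28 in the control libraries (2.41 and 3.34 for all). Both S7P libraries lay below both control libraries at 13 of 40 promoters (18.6% of all) and above both at 4 of 40 (17.7%). Mean log2 NDR ratios were higher, and NDRs thus shallower, at 30 of 40 (43.4% of all had a lower one), with a median effect of 0.60 (0.20 over all) that became 1.04 without replicate 1 of the control cells. The NDR ratio of all expressed promoters was 0.734 and 0.686 in the S7P libraries and 0.654 and 0.585 in the control libraries, and its part in these values was not tested. The promoters of smallest p were Isg20 (first promoter, −16.5 ± 5.65 SE), Dhx58 (−15.1 ± 5.16) and Parp9 (−18.2 ± 6.44), with limma adjusted p of 0.709 each. Dhx58 had 11.4 and 16.2 in the control libraries and −1.4 and −1.05 with S7P, and its log2 NDR ratio was −3.48 and −3.53 against 0.42 and −0.54 (effect 3.45 ± 0.86, limma adjusted p = 0.309). Sp100 had log2 NDR ratios of −3.73 and −3.76 in the control and 0.65 and 0.69 in the S7P libraries (4.42 ± 1.11, limma adjusted p = 0.309). The control values of Dhx58 and Sp100 are about what a window without fragments gives, with the pseudocount of 0.1 added to each mean occupancy. The size of both effects thus depends on the pseudocount.

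In the single pol-II S5P library the median level of the 40 promoters was 4.76, against 5.79 for all promoters and 10.5 for those expressed in fibroblasts, and 13 of 40 were below 0 (25.6% of all). Bst2 and Usp18 had high levels (18.2 and 17.9). Mx1 had −11.1 and Xaf1 −7.66. With 1 library, no error can be given for these values.

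For comparison, 32 genes of interferon induction and signalling that are not in the set had 38 promoters, 31 of them with high coverage (25 genes). Of these 31, 19 had a CpG island and 3 an ISRE. In DCs their median level was 5.79, and 6.99 with LPS. In fibroblasts it was 6.05, and 4.43 with TNF-α. Not 1 of the 31 was called in either direction in any of the 4 limma contrasts on patterning or NDR ratio. At an unadjusted p under 0.05, 0 to 3 of 31 passed for patterning and 1 to 5 for the NDR ratio. Levels before stimulation in DCs and fibroblasts were −4.83 and −1.46 for Ifnb1, the interferon-β gene, which was listed at expression 0 in both, 1.37 and 5.93 for Irf7, the factor that amplifies the response, 9.77 and 4.82 for Stat2, and 3.06 and 11.1 for the inhibitor Socs1.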

How the data were processed

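ChIP-MNase nucleosome occupancies of 15 mouse libraries in 10 groups were used. According to the study's methods, the authors aligned reads to mm9 with Bowtie (Bowtie2, version 2, and bedtools in the submitters' processing notes), removed duplicates, and counted fragments in 10 bp bins relative to the surrounding kilobase from −1000 to 1000 bp of each TSS. The deposited values are this signal, without read numbers, so depth is unknown and no counting interval can be given. Per the file headers, a score column gives coverage, and the deposited basal expression values are used within a cell-type only. Columns with the authors' own expression changes on stimulation were not used.

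Occupancies were divided by the library mean over high-coverage promoters (score above 100). The patterning level is the sum over 200 bins of a template (mean profile of expressed promoters of the same non-stimulated cell-type, scaled from 0 to 1 and centred) times the centred occupancy. Log2 NDR ratios used a pseudocount of 0.1. Contrasts were fitted with limma 3.58.1 (R 4.3.3) over all 11 single libraries without a replicate block. Left out were 264 promoters empty in any of them, none from the set, so that 13295 were tested. Scripts were tested on simulated data. The changes added there were multiples of the median standard deviation over all promoters, not of each promoter's own. For patterning, 2 of 100 promoters given a change of 2 such standard deviations were called, and 59 of 100 given 4. For the NDR ratio these were 9 and 55 of 100. Changes of 2 median standard deviations were thus mostly missed, and a promoter without a call may still have changed. Motifs and CpG islands (GC above 50%, observed to expected CpG above 0.6 within 200 bp) were read from the mm9 genome. RefSeq identifiers were matched to symbols for 24924 of 25881 promoters. The promoter start column acted as 1-based on the plus strand: 29 of the 48 TSSs then fell exactly on an annotated start.

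The members and gene lists were chosen with earlier results of these data known. Named were 10 fixed genes, the 5 highest and 5 lowest levels in each non-stimulated cell-type, the 5 largest differences each way between cell-types and upon LPS, and the 3 smallest p of each contrast. Irgm2, Ifitm3 and the signalling genes were named after their values were seen. Alternatives were other windows, pseudocounts, coverage limits and scalings, a replicate block and leaving out libraries.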

Additional observations from a re-analysis of the deposited data

Results flagged for a closer look

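At 5 of the 40 promoters, both libraries of one state lay above both of the other in control cells and the opposite in BAF-knockdown cells, so that patterning differed in opposite directions with TNF-α (5.65% of all high-coverage promoters did so). Gbp4 was lower before than after TNF-α in control cells and higher before than after in knockdown cells, with a difference between the effects of −26.0 ± 7.21 (SE) at its first promoter and −24.3 ± 7.53 at the second, which shares nearly all of its window. Ifih1 had 1.56 and 0.903 before and −1.84 and −1.94 after in control cells, against −2.17 and −18.1 before and 3.49 and 10.1 after in knockdown cells, a difference of 20.05 ± 8.56. Gbp6 differed by 15.5 ± 7.16 and Gbp5 by 10.98 ± 6.84, both with lower levels after TNF-α in control cells. The difference was tested as an interaction in limma, and none passed (adjusted p 0.829 to 0.935).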

How the results depend on the processing

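Calls were counted over all tested promoters. An NDR window of −200 to 50 bp gave 2 calls for TNF-α on the NDR ratio, and coverage above 200 gave 2 for BAF knockdown on patterning, against 0 in each as reported. Leaving out single libraries gave 0 to 2 calls for BAF knockdown (2 without replicate 1 of the TNF-α-treated control cells) and 0 to 1 for S7P (1 without S7P replicate 1) on patterning. None of these calls is in the set of 40. Without scaling to the library mean, median patterning levels of the 40 promoters were 6.27 and 8.01 in DCs and 5.32 and 6.46 in fibroblasts (all promoters 5.59, 5.90, 5.74 and 6.12). With the wider NDR window their median log2 NDR ratios were −0.36 and −0.57 in DCs and −0.22 and −0.33 in fibroblasts, against −0.68, −1.06, −0.73 and −0.69. Median effects over the set moved more. With coverage above 200 (23 promoters) the TNF-α median in patterning was 0.15 and that of the interaction −6.91, of opposite sign to the 0.37 at all 40, and the interaction median in NDR ratio was 0.14 in place of −0.03 (0.0780 with the wider NDR window, −0.55 without a coverage filter). A pseudocount of 0.5 gave NDR medians of −0.18 for TNF-α and 0.32 for S7P, and S7P patterning medians were −3.08 without scaling and −3.03 on square roots. Leaving out libraries gave median patterning effects of 0.42 to 2.38 for TNF-α, −1.54 to 0.77 for BAF knockdown, −2.32 to 1.66 for the interaction and −4.94 to −2.88 for S7P. NDR medians were −0.48 to −0.0808 for TNF-α, −0.0111 to 0.28 for BAF knockdown, −0.28 to 0.18 for the interaction and 0.48 to 1.04 for S7P. Within these ranges, BAF knockdown had −0.86 and 0.17 in patterning without replicate 1 or 2 of the non-stimulated knockdown cells and 0.21 in NDR ratio without replicate 2 of the TNF-α-treated ones. S7P had −4.86 without replicate 1 of its controls and an NDR median of 0.93 without replicate 1 of every group, and TNF-α an NDR median of −0.14 without replicate 2 of every group. The signs for BAF knockdown and for the interaction thus changed with single libraries, and the cause was not tested. With a replicate block 0 promoters were called, and replicate numbers did not pair the samples (correlations of replicate differences at most 0.0273 in size). Where a group keeps 1 library, it is assumed to vary like the others. Without a replicate number throughout, the interaction has no residual degrees of freedom and was not fitted. Unknown depth and 2 libraries a group limit what single promoters can show.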
